A study of Mus musculus with 9 samples.

Results

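The genes described here are 10 that encode centrosome proteins and nuclear envelope proteins: Pcm1, Pcnt, Akap9, Cdk5rap2, Cep135, Ninl, Akap6, Syne1, Syne2 and Lmna. They were found by symbol in a table of counts at gene start regions, around the transcription start site (TSS), where all 10 had a row among 33844 rows, and all 10 were among the 33747 rows tested. The assay was ATAC-seq, in which a transposase inserts adapters into open DNA, so that a higher count means a more accessible region. The groups were heart muscle cells of CD-1 (ICR) mice at postnatal day 1 (P1), day 14 (P14) and day 56 (P56), with 3 libraries each, given as biological triplicates. All groups shared 1 strain and 1 sorting antigen, and no mutation or drug treatment is given for any of them. Each library came from pooled hearts, with 12 in each P1 library and 6 to 7 in each of the others, and nuclei were sorted with an antibody to Pcm1, the product of one of the 10 genes. The growth protocol mentions surgery and does not say whether these hearts had any.

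In dividing cells the centrosome, a pair of centrioles in a protein matrix, is the main site where microtubules start. Heart muscle cells lose this site after birth: pericentrin, PCM1 and other centrosome proteins move to the nuclear envelope, and microtubules then grow from there. In muscle, the large anchor proteins nesprin-1 (Syne1) and AKAP6 hold them at the outer nuclear membrane, and lamins form the meshwork on its inner side. The data address whether the start regions and the peaks of these genes changed in accessibility over the same weeks.

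Counts at start regions totalled 481217 to 2167369 per library, with P14 the shallowest stage, so differences involving P14 carry the widest error. The labelled cell type was checked against markers at the start regions. All 12 cardiomyocyte markers had a row, and their levels in CPM, a unit that puts every library on one total, summed to 651 to 1335 in P1 libraries, 1013 to 1278 in P14 libraries and 1275 to 3101 in P56 libraries. No marker of fibroblasts, endothelium, smooth muscle, leukocytes or glia was at 0 in every library. The 8 fibroblast markers summed to 291 to 332 CPM in P1 libraries, 243 to 311 CPM in P14 libraries and 273 to 296 CPM in P56 libraries. These sums are over unlike numbers of genes. Means per marker in P1 libraries were 54.2 to 111 CPM for cardiomyocytes, 43.1 to 54.3 CPM for endothelium and 36.4 to 41.5 CPM for fibroblasts. For smooth muscle, leukocytes and glia they were 21.5 to 23.1, 24.3 to 29.3 and 30.5 to 37.2 CPM. In P56 libraries the means were 106 to 258 CPM for cardiomyocytes and 43.4 to 49.1 CPM for endothelium. None of the 39 markers of cell types other than cardiomyocytes had an adjusted p below 0.05 in any comparison. Over all start regions, 2.53% did at P56 with P1, 0.0119% at P14 with P1 and 0.00296% at P56 with P14. The median log2 change at P56 with P1 was -0.36 for fibroblast, -0.11 for endothelial, 0.03 for smooth muscle, 0.01 for leukocyte and 0.19 for glial and neuronal markers. P56 replicate 2 stood apart, with the highest cardiomyocyte marker sum of the 9 libraries, and P1 replicate 1 had the lowest. In pooled nuclei, a change in the share of cells and a change per cell cannot be told apart.

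Of the 12 promoter windows that RefSeq gives for 9 of the genes, 6 are printed because they show how differently these genes start. They are in build GRCm38.p6 and run from 250 bases before to 50 bases after an annotated start, written 5′ to 3′ on the gene's strand, with each CG dinucleotide in capitals. Syne2 has the window densest in CG, Akap6 one of the poorest, Lmna 2 windows with no more sites than the median window, and Syne1 window 1 at the start of its long form and window 3 far inside the gene.
Syne2, chr12:75818068-75818367, plus strand: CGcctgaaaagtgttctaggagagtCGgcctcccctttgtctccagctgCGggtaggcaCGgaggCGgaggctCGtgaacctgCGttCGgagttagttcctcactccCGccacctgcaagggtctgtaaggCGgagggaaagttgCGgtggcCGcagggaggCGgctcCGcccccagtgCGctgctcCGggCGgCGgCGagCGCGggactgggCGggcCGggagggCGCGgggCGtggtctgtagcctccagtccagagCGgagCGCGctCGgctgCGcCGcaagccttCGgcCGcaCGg
Akap6, chr12:52699133-52699432, plus strand: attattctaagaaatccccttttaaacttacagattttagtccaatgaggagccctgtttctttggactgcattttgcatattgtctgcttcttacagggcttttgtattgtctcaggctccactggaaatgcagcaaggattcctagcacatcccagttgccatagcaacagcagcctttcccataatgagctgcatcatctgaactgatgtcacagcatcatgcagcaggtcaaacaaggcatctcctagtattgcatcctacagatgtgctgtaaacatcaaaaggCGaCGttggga
Lmna window 1, chr3:88503303-88503602, minus strand: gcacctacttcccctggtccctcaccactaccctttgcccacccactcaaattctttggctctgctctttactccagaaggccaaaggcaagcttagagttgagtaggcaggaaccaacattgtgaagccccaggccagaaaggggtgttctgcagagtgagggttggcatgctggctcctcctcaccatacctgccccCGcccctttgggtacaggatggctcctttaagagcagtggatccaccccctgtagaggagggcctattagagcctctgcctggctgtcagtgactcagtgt
Lmna window 2, chr3:88493263-88493562, minus strand: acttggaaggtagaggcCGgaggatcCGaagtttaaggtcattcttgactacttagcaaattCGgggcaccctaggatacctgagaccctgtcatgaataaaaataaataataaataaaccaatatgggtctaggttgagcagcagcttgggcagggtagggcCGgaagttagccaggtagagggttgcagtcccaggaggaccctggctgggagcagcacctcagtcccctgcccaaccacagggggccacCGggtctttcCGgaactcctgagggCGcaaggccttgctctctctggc
Syne1 window 1, chr10:5550643-5550942, minus strand: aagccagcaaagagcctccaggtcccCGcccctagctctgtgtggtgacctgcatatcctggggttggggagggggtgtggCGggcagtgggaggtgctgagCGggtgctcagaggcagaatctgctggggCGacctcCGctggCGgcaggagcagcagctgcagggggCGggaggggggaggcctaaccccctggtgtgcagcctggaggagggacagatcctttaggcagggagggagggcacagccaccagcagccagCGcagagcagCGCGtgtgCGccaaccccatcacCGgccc
Syne1 window 3, chr10:5069014-5069313, minus strand: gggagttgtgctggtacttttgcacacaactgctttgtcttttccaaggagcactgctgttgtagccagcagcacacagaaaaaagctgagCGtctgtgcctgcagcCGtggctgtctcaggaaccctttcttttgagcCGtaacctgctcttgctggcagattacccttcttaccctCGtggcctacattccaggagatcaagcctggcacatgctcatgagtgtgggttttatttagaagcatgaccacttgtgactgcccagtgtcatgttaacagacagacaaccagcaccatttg

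The Syne2 window held 35 CG sites, against 2 in the Akap6 window. Lmna had 1 and 7 in its windows, and Syne1 had 12, 3 and 4 in its 3 windows. The centrosome genes were richer, with 28 in Cdk5rap2, 27 each in Akap9 and Cep135, 26 in Pcnt and 14 in Ninl. Over all 32851 RefSeq windows the median was 7, with quartiles of 3 and 20. Pcm1 had no window in the sequences used here.

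Short motifs were counted on both strands of the 12 windows, with no test. The GC box (GGGCGG) was in 8 of 12 windows, against 35.7% of all windows, and the CCAAT box (CCAAT) was in 5 of 12, against 37.4%. The TATA box (TATAAA) was in 1, the second Syne1 window, against 13.6% of all windows. An ETS motif (CCGGAAG) was in 1, the second Lmna window, against 8.86%. None of the 12 held the NRF1 core (GCATGCG, 3.58% of all windows), the CREB core (TGACGT, 7.51%), the GATA motif (AGATAA, 11.2%), the E box (CACGTG, 7.15%), the CArG box (1.63%) or the MEF2 motif (3.19%). A CArG box or a MEF2 motif can contain a TATA box, so the shares of these motifs over all windows can overlap.

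Start-region accessibility of the 10 genes ranged from below the median of all start regions to near the top. The width of the start regions is not given in the sources used here and may differ between genes, so these are CPM per region and not per length. Syne2 and Lmna averaged 169 and 160 CPM over the 9 libraries, above 99.3% and 99.2% of all start regions, whose median was 18.9 CPM. Akap9 at 112 CPM, Cdk5rap2 at 101 CPM and Ninl at 93.2 CPM were also in the top 10%, above 63.6 CPM. Pcm1, Pcnt and Cep135 lay between 31.9 and 36.8 CPM, Syne1 at 22.0 CPM, and Akap6 at 12.6 CPM, above 25.04% of regions.

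Level and CG content went together over the start regions matched to a RefSeq window, and Lmna stood high for its few sites. Among the 15219 start regions matched to a RefSeq window, the median level was 15.8 CPM with 0 to 3 CG sites in the richest window, 23.5 CPM with 4 to 7, 31.6 CPM with 8 to 20 and 41.2 CPM with 21 or more. Lmna, with at most 7 sites, was above 99.4% of the 5444 regions with as few or fewer. Akap6, with at most 2 sites, was above 37.0% of the 2372 regions like it. Pcnt and Cep135, with 26 and 27 sites, were above 66.9% and 61.6% of the regions with as few or fewer. Syne1, with at most 12 sites, was above 55.3%. The other genes with a window also stood high, with Syne2 above 99.0%, Ninl above 96.4%, Akap9 above 96.3% and Cdk5rap2 above 94.9%.

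**Figure D1:**
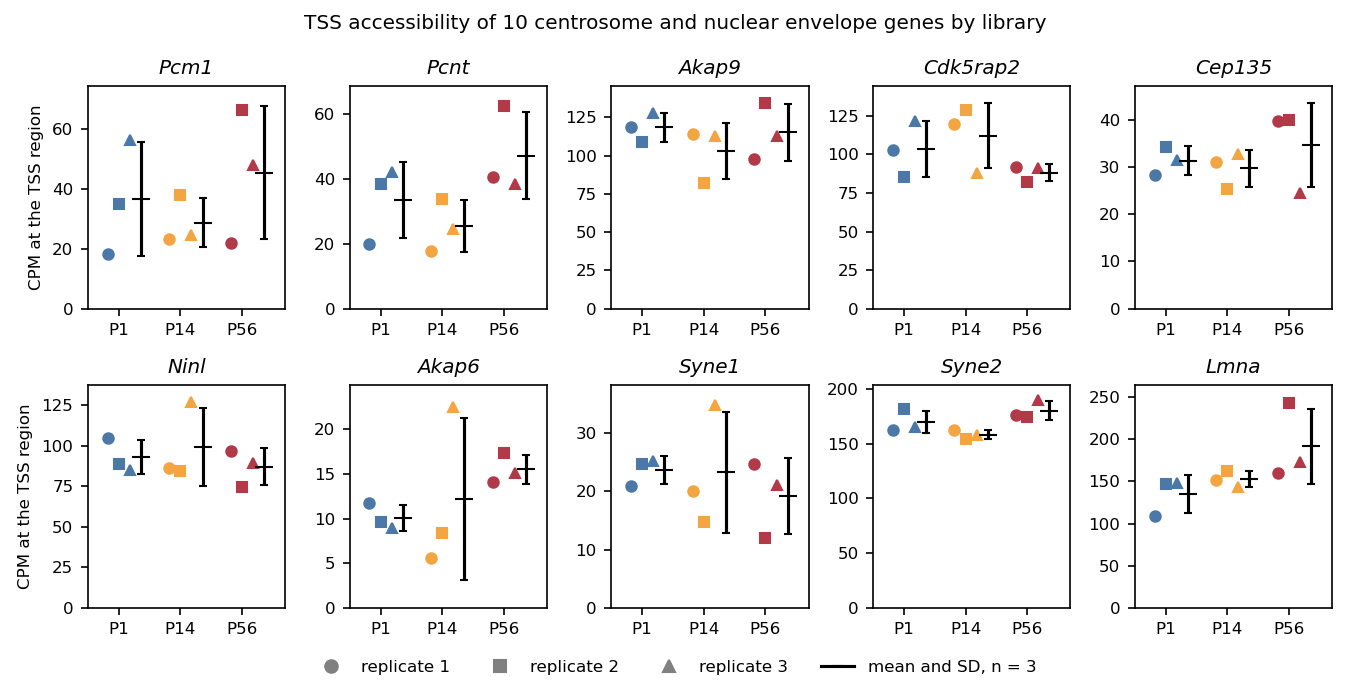
CPM at the start region of each gene (vertical axis, from 0) in the 3 libraries of P1, P14 and P56, with symbols for replicate numbers and a bar for the mean and SD. Syne2 varied least, Pcm1 spread from 18.3 to 66.2 CPM, and the 3 P56 libraries of Lmna sat above the 3 P1 libraries.

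None of the 10 start regions changed between stages at an adjusted p below 0.05. From the 9-library fit with edgeR's quasi-likelihood test, 0 of 10 were called at P56 with P1, where 853 of 33747 regions were called (2.53%). None was called at P14 with P1 (0.0119% of all regions) or at P56 with P14 (0.00296%). At an unadjusted p below 0.05 there was 1 of 10 at P56 with P1 (21.6% of all regions), 0 of 10 at P14 with P1 (8.59%) and 1 of 10 at P56 with P14 (10.1%). No gene of the 10 had non-overlapping stages at P14 with P1, where 9.02% of all regions were wholly higher and 7.87% wholly lower. The 3 comparisons share libraries in pairs, so they are not independent of each other.

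The other start regions give a scale for these small differences. At P56 with P1 the median log2 change was -0.26 for the less accessible 50% of all start regions and 0.28 for the top 10%. The 10% most counted start regions held 35.9% to 38.6% of all counts at P56, against 32.6% to 33.4% at P1, and the part of this shift in the results was not tested. The 10 genes had a median of 0.13, with 6 above 0, against 49.3% of all regions. At P14 with P1, 4 of 10 were above 0 (50% of all regions), and at P56 with P14, 7 of 10 (48.4%). Of the 5 in the top 10%, only Lmna, at 0.52, was above that class median, and Syne2, Akap9, Ninl and Cdk5rap2 were below it.

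**Figure D2:**
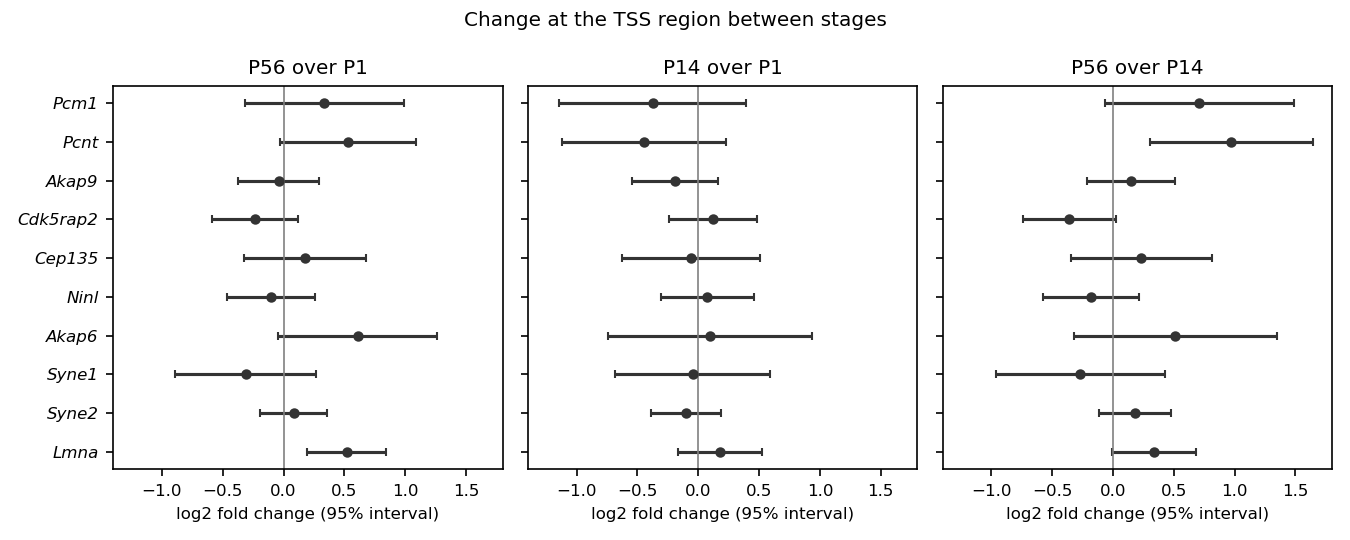
Log2 fold change at the start region of each gene with its 95% interval from the fit, for P56 over P1, P14 over P1 and P56 over P14. Intervals were clear of 0 for Lmna at P56 over P1 and for Pcnt at P56 over P14, and neither passed adjustment over all regions.

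Among centrosome proteins, PCM1 is the scaffold of centriolar satellites, small granules that carry proteins to the centrosome, and it is the antigen on which the nuclei were sorted. Its start region (gene on chr8:41239484-41334088) had 18.3, 34.9 and 56.2 CPM in the 3 P1 libraries, 23.3, 37.96 and 24.6 CPM at P14, and 22.0, 66.2 and 47.8 CPM at P56. The stages overlapped almost completely. The mean was 45.3 ± 22.2 CPM at P56 and 36.5 ± 19.0 CPM at P1 (SD, n = 3 each), a log2 change of 0.33 (SE 0.321, adjusted p = 0.563). Without P1 replicate 1 the log2 change was -0.03, without P56 replicate 2 it was -0.09, and without both it was -0.48. These libraries held the lowest P1 value and the highest P56 value of Pcm1, so leaving them out was bound to lower the change. Other libraries moved it the other way, to 0.81 without P1 replicate 3 and 0.66 without P56 replicate 1. Its size and sign thus varied with single libraries. With P14 as the baseline, P56 had a log2 change of 0.71 (adjusted p = 0.538).

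Pcm1 was the least repeatable of the 10 at P1. Its coefficient of variation among P1 libraries was 52.1%, above 99.1% of the 1762 start regions within 10% of its level, whose median was 17.2%. At P56 it was 49.0%, above 97.7% of them, and at P14 it was 28.3%, above 77.5%. Within each stage its 3 libraries had the same order as the cardiomyocyte markers, whose sums were 651, 1064 and 1335 CPM at P1, 1013, 1278 and 1184 CPM at P14 and 1275, 3101 and 1686 CPM at P56. The part of the marker level in the Pcm1 values was not tested.

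The start regions with the library profile closest to that of Pcm1 were Etnk1, Cpeb2 and Mhrt. Likeness was the root mean square difference of centred log2 CPM over the 9 libraries. It was taken among 14454 regions, those of named genes with a mean count of at least 20. These genes were picked by it, so the values only describe. The differences were 0.1503 for Etnk1, 0.170 for Cpeb2 and 0.174 for Mhrt, against a median of 0.623 over those 14454 regions. Mhrt is a heart noncoding RNA transcribed from within the Myh7 gene, and the counts carry no strand. The start regions of Mhrt and Myh7 were counted in separate rows, and whether they share bases is not given in the sources used here. Myh7 had 48.7, 71.3 and 104 CPM at P1, 92.2, 154 and 145 CPM at P14, and 174, 433 and 241 CPM at P56. Mhrt had 36.5, 89.8 and 103 CPM at P1, 56.6, 86.5 and 69.7 CPM at P14, and 51.1, 151 and 96.7 CPM at P56.

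**Figure D3:**
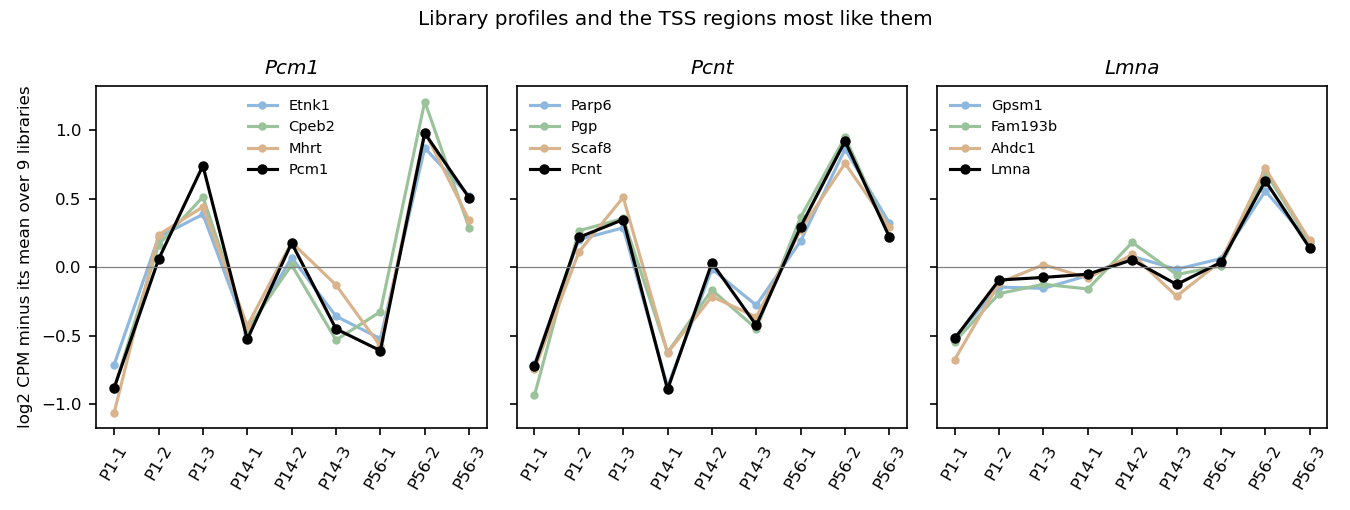
Log2 CPM minus its mean over the 9 libraries (vertical axis) for Pcm1, Pcnt and Lmna in black, each with the 3 start regions most like it in colour, by library in stage order. For all 3 genes P1 replicate 1 was below the gene's mean and P56 replicate 2 was its highest library.

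Pericentrin, encoded by Pcnt (chr10:76351254-76442912), is the matrix protein that docks γ-tubulin complexes, from which microtubules grow. Its start region had 20.0, 38.4 and 42.0 CPM at P1, 17.8, 33.7 and 24.6 CPM at P14, and 40.5, 62.5 and 38.4 CPM at P56. Every P56 library was above every P14 library, while P56 and P1 overlapped. Non-overlap in that direction held for 2 of the 10 genes at P56 with P14, Pcnt and Syne2, against 7% of all start regions, and in the lower direction for none, against 6.96%. The Pcnt mean was 47.1 ± 13.3 CPM at P56 and 25.4 ± 8.02 CPM at P14 (SD, n = 3 each), a log2 change of 0.97 (SE 0.330, unadjusted p = 0.00587, adjusted p = 0.326). The 95% interval of the fold was 1.23 to 3.13. The P14 values rest on raw counts of 16, 16 and 12. At P56 with P1 the log2 change was 0.53 (SE 0.274, adjusted p = 0.256). The profiles closest to Pcnt were those of Parp6 at a difference of 0.0710, Pgp at 0.126 and Scaf8 at 0.143, against a median of 0.547.

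None of the other 4 centrosome genes passed, and the libraries of their stages overlapped in every comparison. AKAP9 holds γ-tubulin complexes at the centrosome and at the Golgi, and CDK5RAP2 activates those complexes. Akap9 (chr5:3927736-4080204) averaged 119 ± 9.58 CPM at P1, 103 ± 18.1 CPM at P14 and 115 ± 18.6 CPM at P56 (SD, n = 3 each). Its log2 change at P56 with P1 was -0.04, with a 95% interval from -0.37 to 0.29 (adjusted p = 0.908). Cdk5rap2 (chr4:70216855-70410435) had 103, 85.7 and 122 CPM at P1, 120, 129 and 88.1 CPM at P14, and 91.6, 82.0 and 90.9 CPM at P56. The P56 libraries lay within the P1 range or just under it, and the log2 changes were -0.24 at P56 with P1 (adjusted p = 0.434) and -0.36 at P56 with P14 (adjusted p = 0.525).

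Cep135 encodes a protein of the centriole wall and Ninl the ninein-like protein, a γ-tubulin binder. Cep135 (chr5:76588653-76646466) averaged 31.3 ± 3.01 CPM at P1, 29.7 ± 3.92 CPM at P14 and 34.7 ± 8.83 CPM at P56 (SD, n = 3 each). Its log2 change at P56 with P1 was 0.17, with a 95% interval from -0.33 to 0.68 (adjusted p = 0.707). Ninl (chr2:150934519-151009411) averaged 93.1 ± 10.6 CPM at P1, 99.3 ± 24.0 CPM at P14 and 87.0 ± 11.4 CPM at P56 (SD, n = 3 each). Its log2 change was -0.11, with a 95% interval from -0.47 to 0.26 (adjusted p = 0.758).

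Among nuclear envelope genes, Lmna was nearest to the threshold. It encodes lamins A and C, which line the inner nuclear membrane and stiffen the nucleus. Its start region (gene on chr3:88481148-88509932) had 109, 147 and 149 CPM at P1, 151, 162 and 143 CPM at P14, and 160, 242 and 172 CPM at P56. Every P56 library was above every P1 library. That held for 2 of the 10 genes, Lmna and Akap6, against 10.9% of all start regions, and none of the 10 was non-overlapping in the lower direction, against 13.2%. The mean was 192 ± 44.3 CPM at P56 and 135 ± 22.3 CPM at P1 (SD, n = 3 each), a log2 change of 0.52 (SE 0.159, unadjusted p = 0.00261, adjusted p = 0.066). The 95% interval of the fold was 1.14 to 1.79.

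The Lmna call depended on the setting. It passed at adjusted p = 0.0418 with limma-voom, at adjusted p = 0.0168 with the replicate number as a block and at adjusted p = 0.0271 without P56 replicate 1, and it failed under the other 17 alternatives. The log2 change was 0.31 without P56 replicate 2 (adjusted p = 0.309), 0.16 without both that library and P1 replicate 1, and 0.21 with loess offsets that remove each library's trend with abundance (adjusted p = 0.552). At P56 with P14 it was 0.34 (adjusted p = 0.502), and at P14 with P1 it was 0.18 (adjusted p = 0.798). The profiles closest to Lmna were those of Gpsm1 at a difference of 0.0571, Fam193b at 0.0691 and Ahdc1 at 0.0749, against a median of 0.349.

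AKAP6 ties protein kinase A and phosphatases to the nuclear envelope of heart muscle cells. Akap6 (chr12:52698588-53155568) had the lowest start-region level of the 10, with 11.7, 9.59 and 8.93 CPM at P1, 5.55, 8.44 and 22.5 CPM at P14, and 14.1, 17.3 and 15.1 CPM at P56. The P56 libraries were all above the P1 libraries, and the P14 libraries spanned both, on raw counts of only 5, 4 and 11. Its mean was 15.5 ± 1.64 CPM at P56 and 10.1 ± 1.47 CPM at P1 (SD, n = 3 each), a log2 change of 0.61 (SE 0.321, adjusted p = 0.265). Its 95% interval ran from -0.044 to 1.26, and its mean raw count over the 9 libraries was 14.4.

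Nesprin-1 and nesprin-2, encoded by Syne1 and Syne2, span the outer nuclear membrane and link the nucleus to the cytoskeleton. Syne1 (chr10:5020192-5550692) averaged 23.6 ± 2.37 CPM at P1, 23.2 ± 10.4 CPM at P14 and 19.2 ± 6.49 CPM at P56 (SD, n = 3 each). Its log2 change at P56 with P1 was -0.31 (SE 0.285, adjusted p = 0.539), and it was -0.57 without P56 replicate 1 and -0.026 without P56 replicate 2. Syne2 (chr12:75818318-76110928) was the steadiest, with 162, 182 and 165 CPM at P1, 162, 154 and 158 CPM at P14, and 176, 174 and 190 CPM at P56. Its coefficients of variation were 6.15% at P1, 2.59% at P14 and 4.82% at P56. Every P56 library was above every P14 library, with a log2 change of 0.18 (SE 0.145, adjusted p = 0.703). At P56 with P1 its 95% interval ran from -0.19 to 0.36.

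A further contrast took the log2 change at P14 with P1 minus that at P56 with P14, to ask whether a difference fell early or late. None of the 10 passed, against 0.00889% of all start regions. Pcnt had an unadjusted p below 0.05, with a contrast of -1.42 and a 95% interval from -2.64 to -0.19.

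The deposited peaks give a second reading, with lengths that allow levels per kb. They were counted in the same 9 libraries, so they are not independent of the start regions. Of 25915 peaks, 31 lay inside the 10 genes, and all 31 were tested. Akap6 had 8, Pcnt and Akap9 had 4 each, Syne1, Syne2 and Lmna had 3 each, Cdk5rap2 and Cep135 had 2 each, and Pcm1 and Ninl had 1 each. A promoter window was overlapped by 7 of the 31, in Pcnt, Cdk5rap2, Cep135, Syne1, Syne2 and Lmna, which had 2. No deposited peak overlapped the windows of Akap9, Ninl or Akap6, although the start regions of Akap9 and Ninl were in the top 10% of levels. The deposited peaks each had a mean count of at least 10, so weaker peaks were not analysed here.

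None of the 31 peaks changed in any comparison, against 0.444% of 25885 peaks called at P56 with P1 (0.212% higher and 0.232% lower) and 0.00773% in each of the other comparisons. At P56 with P1, 4 of 31 had an unadjusted p below 0.05, against 16% of all peaks, and 4 were non-overlapping and higher, against 8.54%. The 4 non-overlapping peaks were 2 in Pcnt, 1 in Syne2 and 1 in Lmna. No peak was non-overlapping and lower, against 10.1%, and 21 of 31 had a log2 change above 0, against 52.4%. The median log2 change of the 31 was 0.07, against 0.03 for all peaks.

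The other comparisons are set beside the same backgrounds. At P14 with P1, 3 of 31 had an unadjusted p below 0.05 (6.04% of all peaks), 4 were non-overlapping and higher (7.39%), 2 were non-overlapping and lower (5.64%) and 16 were above 0 (49.8%). The counts at P56 with P14 were 3 of 31 (14.7%), 3 higher (9.12%), 2 lower (10%) and 19 above 0 (51.2%).

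Syne1 had no peak at windows 1 and 2 and had 1 at window 3. Window 3 marks an internal start, and the centre of its peak lies 48781 bp from the gene's 3′ end. Muscle is known for short nesprin-1 forms that lack the actin-binding end. The peak (chr10:5068349-5069597) had 23.04, 41.1 and 49.9 CPM at P1, 29.8, 21.8 and 28.4 CPM at P14, and 27.6, 55.6 and 26.7 CPM at P56. The stages overlapped, with a log2 change of -0.0020 at P56 with P1 (adjusted p = 0.998). At 27.0 CPM per kb it was above 80.5% of all peaks. Which start the Syne1 start-region count covers is not given in the sources used here.

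Lmna had peaks at both windows. The peak at window 1 (chr3:88500381-88503893), 3513 bp long, had 92.1, 93.2 and 76.9 CPM at P1, 92.9, 90.3 and 75.8 CPM at P14, and 108, 105 and 104 CPM at P56. The P56 libraries were the highest, and the log2 change at P56 with P1 was 0.27 (SE 0.246, adjusted p = 0.594). The peak at window 2 (chr3:88492122-88493879) had 37.8, 53.3 and 72.0 CPM at P1, 52.6, 43.6 and 34.7 CPM at P14, and 47.3, 116 and 73.5 CPM at P56. P56 replicate 2 was its highest library, and the stages overlapped at P56 with P1, with a log2 change of 0.56 (adjusted p = 0.321). At P56 with P14 that peak had a log2 change of 0.84 (adjusted p = 0.251), the smallest p of the 31 there.

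None of the remaining promoter peaks passed the test in any of the 3 comparisons. The log2 change at P56 with P1 was 0.14 for Pcnt (chr10:76441450-76443593, adjusted p = 0.826), 0.15 for Cdk5rap2 (chr4:70409695-70411111, adjusted p = 0.836) and 0.30 for Cep135 (chr5:76588393-76589496, adjusted p = 0.691). For Syne2 (chr12:75817926-75819199) it was -0.15 (adjusted p = 0.839). The standard errors of these 4 were 0.276 to 0.355. At P56 with P14 the Pcnt promoter peak averaged 66.9 ± 14.9 CPM at P56 and 42.4 ± 8.38 CPM at P14 (SD, n = 3 each), and every P56 library was above every P14 library. Its log2 change there was 0.71 (SE 0.323, 95% interval 0.066 to 1.35), which did not pass over all peaks (adjusted p = 0.306).

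Inside the genes, the peaks with the smallest p at P56 with P1 were in Pcnt and Syne2. The Pcnt peak (chr10:76416414-76418090) had 30.4, 25.5 and 27.8 CPM at P1, 36.8, 31.1 and 34.7 CPM at P14, and 40.7, 70.7 and 35.1 CPM at P56. Its stages did not overlap at P56 with P1, and the log2 change was 0.83 (SE 0.305, adjusted p = 0.162). The Syne2 peak (chr12:76103935-76105954), centred 5983 bp from the gene's 3′ end, had 83.1 ± 18.8 CPM at P56 and 50.5 ± 8.13 CPM at P1 (SD, n = 3 each), a log2 change of 0.74 (SE 0.271, adjusted p = 0.166). At P14 with P1 the smallest p were for an Akap9 peak (chr5:4066285-4067909), at a log2 change of -0.90 (adjusted p = 0.742), and a Syne2 peak (chr12:76015494-76016760), at 0.76 (adjusted p = 0.793). At P56 with P14 an Akap6 peak (chr12:52895623-52896953) followed the second Lmna peak, at 0.90 (adjusted p = 0.299).

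**Figure D4:**
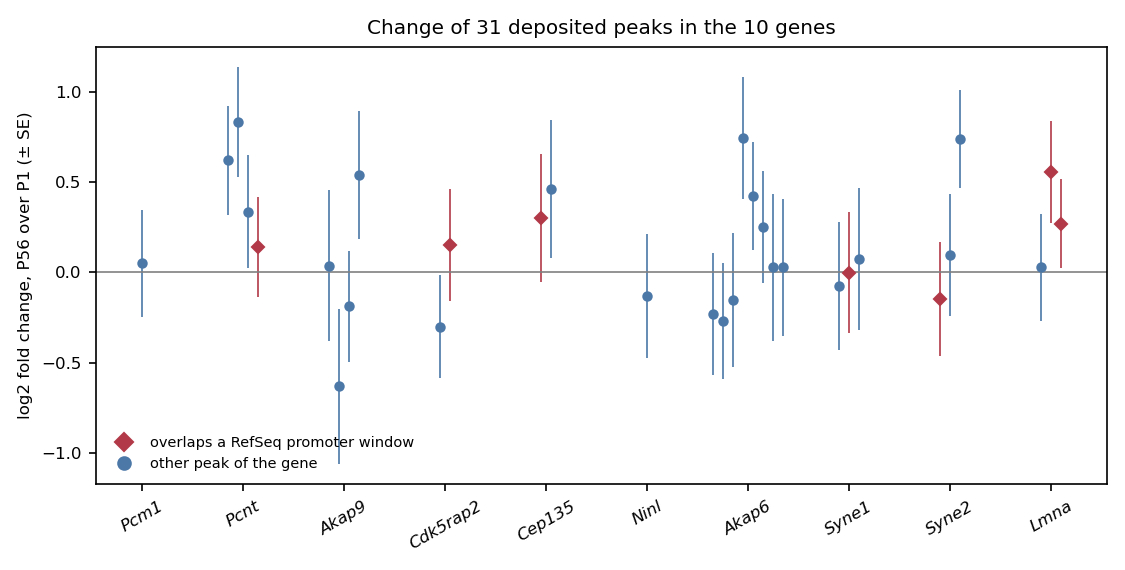
Log2 fold change at P56 over P1 (vertical axis, bars are SE) of the 31 peaks, grouped by gene and in genome order within a gene. The red diamonds are peaks over a RefSeq promoter window and the blue circles are other peaks; 21 peaks lay above 0 and 10 below.

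Of the 31 peaks, 1 in Cdk5rap2 lay near the top of all peaks in density and 1 in Akap6 in length. The Cdk5rap2 peak (chr4:70377632-70378808) inside the gene reached 46.9 CPM per kb, above 99.6% of all peaks, against 23.8 CPM per kb at the Cdk5rap2 promoter peak. The Akap6 peak (chr12:52926338-52932823) was 6486 bp long, longer than 99.4% of peaks, with 5.31 CPM per kb. The only Pcm1 peak (chr8:41239006-41240997) lay at 1 end of the gene and had 62.8 ± 26.3 CPM at P56 and 61.1 ± 29.5 CPM at P1 (SD, n = 3 each). These 3 peaks were picked after their values were seen.

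Genes with related roles were read from 6 lists at the same start regions. At P56 with P1, 3 of 120 listed genes other than the 10 rose and 0 fell, against 1.72% of all start regions called higher and 0.806% called lower. Their median log2 change was 0.30, with 96 of 120 above 0, against 49.3% of all regions and 84.3% of the top 10% by level. The 3 were Pde4dip and Cep85 in the list of pericentriolar matrix and γ-tubulin genes, and Tmem201 in the list of lamina and LINC genes. Pde4dip encodes myomegalin, a phosphodiesterase anchor related to CDK5RAP2, and averaged 236 ± 113 CPM at P56 and 140 ± 25.03 CPM at P1 (SD, n = 3 each), a log2 change of 0.77 (adjusted p = 0.037). Cep85, a centrosome protein, had a log2 change of 0.61 (adjusted p = 0.0485). Tmem201, which encodes the inner nuclear membrane protein SAMP1, had 0.69 (adjusted p = 0.0481). The calls held under 8 of 20 alternatives for Pde4dip, 5 of 20 for Cep85 and 4 of 20 for Tmem201. Each log2 change stayed above 0, at 0.14 to 0.96 for Pde4dip, 0.26 to 0.78 for Cep85 and 0.45 to 0.86 for Tmem201. Without P56 replicate 2 none of the 3 passed, with log2 changes of 0.30 for Pde4dip (adjusted p = 0.355), 0.36 for Cep85 (adjusted p = 0.268) and 0.55 for Tmem201 (adjusted p = 0.165).

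By list at P56 with P1, counting the 10 genes where they are listed, the matrix and γ-tubulin list had 2 of 26 higher and a median of 0.20. The centriolar satellite list had 0 of 19 changed and a median of 0.21, and Hap1 had its smallest p, at 0.61 (adjusted p = 0.0771). The centriole assembly list had 0 of 21 changed and a median of 0.21, with Haus1 at 0.94 (adjusted p = 0.0606) and Odf2 at 0.48 (adjusted p = 0.0619). The lamina and LINC list had 1 of 24 higher and a median of 0.32. The list of microtubule motors and end binders had 0 of 26 changed and a median of 0.36, with Dync1h1, the dynein heavy chain, at 0.47 (adjusted p = 0.0565) and Clip1 at 0.54 (adjusted p = 0.0643). The A-kinase anchor list had 0 of 15 changed and a median of 0.21, with Akap1 at 0.40 (adjusted p = 0.205).

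In the other comparisons no listed gene passed. At P56 with P14 the smallest p in the motor list was that of Pafah1b1, the dynein regulator LIS1, at a log2 change of 1.05 (adjusted p = 0.308). At P14 with P1 the smallest in the same list was that of Dctn1, a dynactin subunit, at 0.44 (adjusted p = 0.478). Among cardiomyocyte markers, 7 of 12 rose at P56 with P1, against 1.72% of all start regions called higher. They were led by Myh7, a myosin heavy chain gene, at 1.93 (adjusted p = 4.32e-05). The marker sum was highest in P56 replicate 2, at 3101 CPM. In P56 replicate 1 it was 1275 CPM, below the 1335 CPM of P1 replicate 3.

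**Figure D5:**
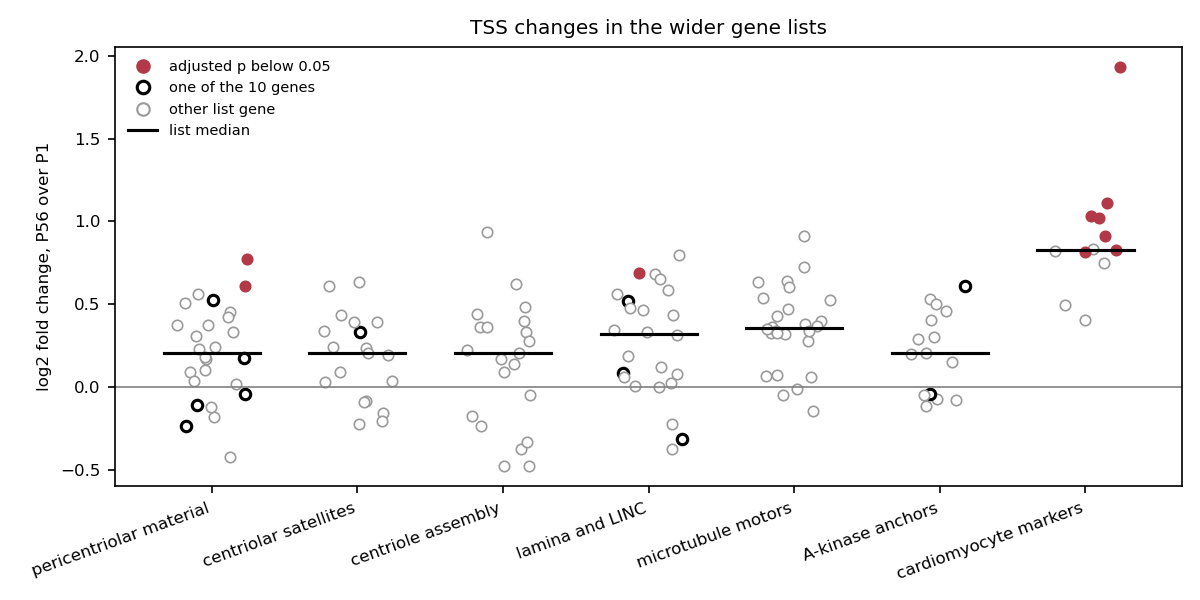
Log2 fold change at P56 over P1 (vertical axis) at the start regions of the 6 gene lists and of the cardiomyocyte markers, with a line at each list's median. Filled red points passed the test, black rings are the 10 genes, and 7 of 12 cardiomyocyte markers are filled against 3 genes of the 6 lists.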

How the data were processed

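Mouse cardiomyocyte nuclei were profiled by ATAC-seq in 9 libraries. The authors deposited unnormalised counts per gene start region and per peak of 1 common list. Build GRCm38 and the programs featureCounts 1.4.2, MACS 1.4.0, BWA 0.7.10, bedtools 2.26, bcl2fastq 2.17.1.14 and SAMtools 1.3.1 are named per the submitters' processing notes. Their roles, read filters and pooling for peak calling are not given in the sources used here. Every deposited row had a mean count of at least 10. Totals were 481217 to 2167369 counts at start regions and 316311 to 1217798 in peaks.

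edgeR 4.0.16, run in R 4.3.3, was used with TMM scaling, the default expression filter, 1 coefficient per stage over 9 libraries and the two-sided quasi-likelihood test, adjusted by Benjamini-Hochberg over all 33747 start regions or 25885 peaks, at a threshold of 0.05. P-values set a change against the spread between libraries of a stage, estimated over all 9 libraries with information shared across regions. Each library was a pool of hearts, so the spread between single animals was not measured. Peaks within 5 kb of a gene in RefSeq GRCm38.p6 were assigned to it. The fits were also run on simulated counts, with changes placed only in rows with a mean count of at least 20. Akap6 was below that count. The share of these changes recovered is not given here, so the run does not show how often small changes would be called.

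The genes, lists and tests were chosen with earlier results of these data known. All 10 genes and every promoter-window peak are named; beyond these, up to 4 called genes or peaks per list and comparison, or else the 2 with the smallest p, of which the text gives a part. Alternatives covered scaling, filters, DESeq2 1.42.0, limma-voom (limma 3.58.1), 2-stage fits, a replicate block, a threshold of 0.01, peak assignment at 50 kb or 0 kb, and leaving out libraries.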

Additional observations from a re-analysis of the deposited data

How the results depend on the processing

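Of 597 values of the 10 genes under alternatives, 563 kept their direction and their side of the threshold, 3 passed it (Lmna) and 31 changed sign without passing. The number of the 10 genes called at P56 with P1 was 0, and 1 (Lmna) with limma-voom, with the replicate block and without P56 replicate 1, a range of 0 to 1 when leaving out 1 library. For peaks it was 0, and 1 at P56 with P1 and 1 at P14 with P1 without both P1 replicate 1 and P56 replicate 2. That peak was in Akap6 (chr12:52876696-52877731), at log2 changes of -1.44 (adjusted p = 0.0156) and -1.35 (adjusted p = 0.0222).

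The labels give a replicate number and no other pairing. Correlations of deviations between same-numbered libraries ran from -0.07 to 0.22 at start regions and from -0.18 to 0.44 in peaks. Differently numbered libraries were not set beside them, so these values cannot decide whether the libraries were paired. With the replicate block, Lmna had a log2 change of 0.50, and 1982 start regions were called at P56 with P1, against 853 without it.

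These signs turned at P56 with P1. Without both libraries Pcm1 was -0.48, Pcnt -0.039, Cep135 -0.0080 and Ninl 0.094. With loess offsets Cep135 was -0.0053 and Syne2 -0.23, and Syne2 was -0.045 by library size and -0.059 with a mean count of at least 20. Leaving out any 1 library, or both of those, gave ranges of -0.48 to 0.81 for Pcm1, -0.039 to 0.74 for Pcnt, -0.20 to 0.065 for Akap9, -0.0080 to 0.35 for Cep135 and -0.19 to 0.094 for Ninl. Without a change of sign they gave -0.57 to -0.026 for Syne1 and -0.35 to -0.10 for Cdk5rap2. At P14 with P1, loess offsets gave -0.032 for Cdk5rap2, -0.068 for Ninl and -0.025 for Lmna, a mean count of at least 20 gave -0.015 for Ninl, and limma-voom gave -0.11 for Akap6. Leaving out libraries gave -0.76 to 0.11 for Pcm1, -0.14 to 0.017 for Cep135, -0.12 to 0.18 for Ninl, -0.62 to 0.61 for Akap6 and -0.38 to 0.13 for Syne1. At P56 with P14 it gave -0.0032 to 0.24 for Akap9, -0.29 to 0.018 for Ninl and -0.53 to 0.065 for Syne1, which was 0.025 without both libraries. The cause was not tested.

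Calls over all start regions at P56 with P1 ranged from 147 to 1523 when leaving out 1 library, were 147 without P56 replicate 2, and were 292 with DESeq2, 213 with loess offsets, 185 with only the 2 stages and 270 with a mean count of at least 20. Library size moved the median of all regions to -0.14 and the split to 319 higher and 778 lower, against 581 and 272; the factors of the peak table gave 332 and 339, and DESeq2 289 and 3. The standard errors of the 10 genes at P56 with P1 ran from 0.135 (Syne2) to 0.321 (Pcm1 and Akap6).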
